A study of Homo sapiens with 4 samples.

Results

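The 10 genes described here are the cadherin genes CDH1, CDH2 and CDH3, the mesenchymal genes VIM and FN1, and the transcription factor genes ZEB1, ZEB2, SNAI1, SNAI2 and TWIST1. They were chosen by symbol, as the genes by which an epithelial-mesenchymal transition (EMT) is usually read. All 10 were among the 60766 features listed in each library. HCT116, a long-established colon carcinoma line of human origin, gave 2 control libraries and 2 libraries from cells with a short hairpin RNA against ARID1A (labelled ARID1A knockdown). ARID1A encodes a DNA-binding subunit of SWI/SNF chromatin remodellers. The stated aim of the study was to relate ARID1A to immune functions. The hairpin sequence, the number of hairpins, what the control cells carried and whether the knockdown cells were a clone or a pool are not stated in the labels. Nothing says that replicates were separate cultures, so p-values measure only the spread between these libraries, which may be technical.

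Cadherins are calcium-dependent adhesion proteins that join neighbouring cells at adherens junctions and bind catenins inside the cell. Epithelial cells of the gut rely on E-cadherin, encoded by CDH1, whereas mesenchymal cells make N-cadherin, encoded by CDH2. The exchange of the first for the second is known as the cadherin switch. SNAIL, SLUG and ZEB factors repress CDH1 by binding E-box sequences, TWIST factors also lower it, and many cells that undergo EMT then gain the intermediate filament protein vimentin and the matrix protein fibronectin.

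Expression was deposited as FPKM, fragments per kilobase of transcript scaled to the mapped fragments of the library, so levels of different genes can be compared within a library. The normalizing totals estimated from the steps between low values were 69000000 and 71000000 fragments for control cells, against 75750000 and 74750000 after knockdown. A gene was tested when its mean over the 4 libraries was at least 1 FPKM, and a change was called at a Benjamini-Hochberg adjusted p under 0.05 in limma, fitted over all 13605 tested features. Log2 changes are knockdown minus control on the log2(FPKM + 1) scale, on which the changes of weakly expressed genes are understated. ARID1A itself was at 11.1 and 11.4 FPKM in control cells, against 7.05 and 6.13 after knockdown, 1.70-fold lower by mean. Its log2 change was -0.69 (SE 0.0774, limma adjusted p = 0.00438), and the two-sided exact permutation p was 0.333, the smallest possible with 2 libraries against 2.

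P-cadherin (CDH3) and E-cadherin (CDH1) were the leading cadherins in all 4 libraries, and N-cadherin (CDH2) was at or near 0. After the knockdown CDH3, VIM and FN1 fell and SNAI1 rose, while CDH1, ZEB1 and TWIST1 did not pass the test. CDH2, ZEB2 and SNAI2 were below the filter and are given as levels. Thus 7 of the 10 genes were tested, of which 1 rose, 3 fell and 3 were not called. Over all tested features 37.1% were called, 18.2% upward and 18.9% downward, and the 4 calls among 7 genes are read against that share. VIM and ZEB1 passed the filter only through their controls, with knockdown means below 1 FPKM. The groups did not overlap for 6 of the 7, as for 72.3% of all tested features. The number called was 1 without control replicate 1 or knockdown replicate 1 (CDH3) and 2 without control replicate 2 or knockdown replicate 2 (CDH3 and SNAI1). The median log2 change of the 7 was -0.15, against -0.0030 over all tested features.

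**Figure D1:**
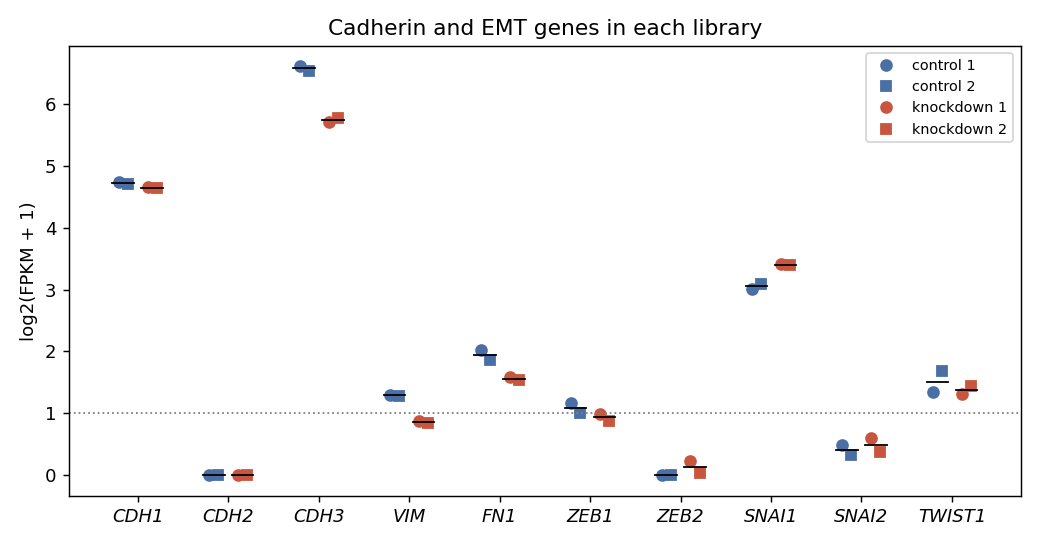
Level of each of the 10 genes in each library, as log2(FPKM + 1), with circles for replicate 1, squares for replicate 2, blue for control, red for knockdown and a black bar for the group mean. The dotted line marks 1 FPKM. CDH3 and CDH1 are highest, CDH2 lies at the floor in every library, and the red points of CDH3, VIM and FN1 lie below the blue ones while those of SNAI1 lie above.

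By mean level in the controls the genes ran from CDH3 through CDH1, SNAI1, FN1, TWIST1, VIM, ZEB1, SNAI2 and ZEB2 to CDH2. In the knockdown libraries the order was the same except that ZEB1 stood above VIM. TWIST1 and VIM in the controls, and ZEB1 and VIM in the knockdown libraries, differed by less than the SD of the first gene of each pair. The other neighbours in the order down to SNAI2 differed by more than the SD of either gene.

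The promoters of VIM and FN1 are shown because these genes fell together, and 1 of the 7 promoter windows of ZEB1 as an example of an E-box of the kind that SNAIL and ZEB factors bind. RefSeq promoter windows were matched for 5 of the 10 genes (CDH2, VIM, FN1, ZEB1 and ZEB2). CDH1, CDH3, SNAI1, SNAI2 and TWIST1 had no entry. Each sequence is the 250 bases before the start site, 5′ to 3′ on the gene's strand, from RefSeq on GRCh38.p14. Capitals mark the E-box CAGGTG, the GC box GGGCGG, the AP-1 site TGANTCA and the cyclic AMP response element TGACGTCA, each searched on both strands.
VIM, chr10:17227991-17228240, plus strand: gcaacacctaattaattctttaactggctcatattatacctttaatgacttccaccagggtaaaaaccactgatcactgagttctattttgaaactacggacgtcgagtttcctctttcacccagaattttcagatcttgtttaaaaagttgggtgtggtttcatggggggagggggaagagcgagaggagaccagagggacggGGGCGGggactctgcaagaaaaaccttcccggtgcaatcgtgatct
FN1, chr2:215436069-215436318, minus strand: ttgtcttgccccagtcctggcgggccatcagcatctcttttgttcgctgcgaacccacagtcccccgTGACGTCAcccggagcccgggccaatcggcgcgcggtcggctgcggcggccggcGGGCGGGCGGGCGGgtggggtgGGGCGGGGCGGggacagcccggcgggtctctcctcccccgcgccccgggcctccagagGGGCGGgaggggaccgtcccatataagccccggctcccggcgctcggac
ZEB1, chr10:31318167-31318416, plus strand: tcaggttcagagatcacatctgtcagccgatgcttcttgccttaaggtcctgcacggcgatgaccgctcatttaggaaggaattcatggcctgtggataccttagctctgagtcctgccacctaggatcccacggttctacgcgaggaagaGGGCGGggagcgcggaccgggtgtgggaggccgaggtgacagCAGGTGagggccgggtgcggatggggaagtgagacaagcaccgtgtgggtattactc

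The VIM window held a single GC box, whose first base lies 46 bases before the start. The FN1 window held 6 GC boxes, some of them overlapping, and a cyclic AMP response element 183 bases before the start. The ZEB1 window shown, picked because it holds the motif, has 1 E-box, 57 bases before the start, and 1 GC box. Of the other ZEB1 windows, 1 (chr10:31318966-31319215) holds 2 E-boxes and the rest hold none, so the choice of window sets this count. Of 35116 RefSeq windows of the same length, 17.5% hold the E-box, 42.6% the GC box, 6.57% the AP-1 site and 1.65% the cyclic AMP response element. These are matches of letters, and no binding was measured here.

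E-cadherin, the adhesion protein that holds gut epithelium together, did not pass the test at the RNA level. CDH1 (GRCh38 chromosome 16, 68737292 to 68835541) was at 25.6 and 25.1 FPKM in control cells, against 24.1 and 24.0 after knockdown. Both knockdown values lay below both control values, by more than the gap between the replicates of either group. The log2 change was -0.07 (SE 0.0403, 95% interval -0.18 to 0.03, limma adjusted p = 0.214), so a fall larger than 0.18 lies outside the interval. Of the tested features, 77.7% had a larger absolute change.

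P-cadherin, the cadherin of basal epithelial layers, was the most abundant of the cadherins and fell. CDH3, the gene next to CDH1 on chromosome 16 (68636189 to 68722616), was at 96.5 and 92.0 FPKM in control cells, against 51.3 and 53.7 after knockdown. The groups lay far apart relative to the few FPKM between replicates. Its mean went from 94.2 ± 3.17 to 52.5 ± 1.68 FPKM (SD, n = 2), 1.79-fold lower, with a log2 change of -0.83 (SE 0.0449, limma adjusted p = 8.37e-04). Only 3.93% of tested features had a larger absolute change. The call held without any 1 of the 4 libraries, with adjusted p between 0.00469 and 0.0154.

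A second, short feature that carries the symbol CDH3 (68696144 to 68696923) lies within the gene and was at most at 0.37 FPKM. The rule took the row with the higher mean. Relative to its neighbour, CDH3 stood at 3.77 and 3.66 times the CDH1 level in the controls and at 2.13 and 2.24 times that level in the knockdown libraries. On the log2 scale the ratio of CDH1 to CDH3 was higher after knockdown by 0.77, where the spread between replicates was 0.0284 (SD, n = 2) in the controls and 0.0514 in the knockdown libraries. This ratio is given as a description, without a test.

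N-cadherin, the mesenchymal cadherin of the switch, was listed at 0 FPKM in control 1, control 2 and knockdown 2. In knockdown 1 CDH2 (chromosome 18, 27950966 to 28177130) was at 0.0038 FPKM, about 1 fragment over its longest annotated transcript of 4332 bases. A 0 in these tables can be a failed estimate, since EEF1A1, a gene that every cell uses, was also listed at 0 in all 4 libraries. A separate feature inside the CDH2 locus, AC110015.1, was at 0.896 and 0.524 FPKM in control cells, against 0.701 and 0.571 after knockdown.

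Of the other 19 cadherin genes, 3 were tested and 1 of these fell, beside 18.9% down over all tested features. Of the 19, 6 were listed at 0 in every library. CDH22 fell from 1.92 ± 0.0222 to 1.07 ± 0.111 FPKM (SD, n = 2; limma adjusted p = 0.0229). That call was lost without control replicate 1 (adjusted p = 0.0920), control replicate 2 (0.0999) or knockdown replicate 2 (0.0754). The M-cadherin gene CDH15, which did not pass, was at 2.84 and 2.36 FPKM in control cells, against 1.93 and 1.96 after knockdown. CDH15 was chosen after its values were seen. Over all 22 cadherins the summed level was 131 and 125 FPKM in control cells, against 82.5 and 84.3 after knockdown. CDH3 made up 73.7% and 73.4% of that sum in control cells, against 62.2% and 63.7% after knockdown, and CDH1 made up 19.6% and 20%, then 29.2% and 28.5%.

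**Figure D2:**
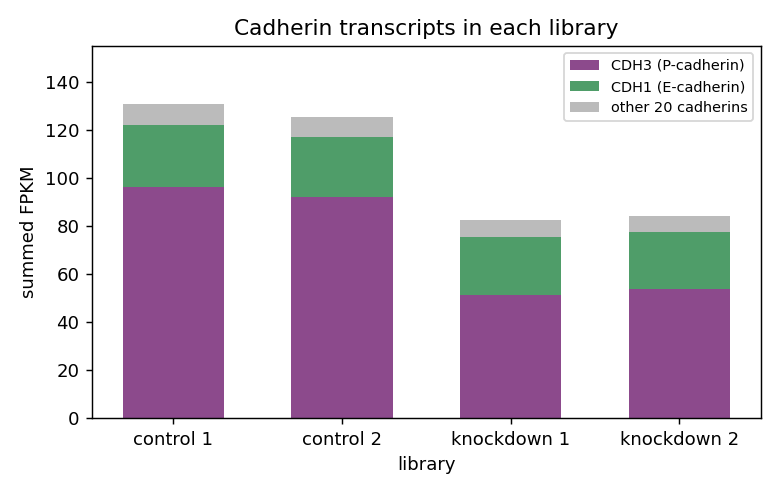
Summed FPKM of 22 cadherin genes in each library, with CDH3 in purple, CDH1 in green and the other 20 cadherins in grey. The purple bar shrinks from 96.5 and 92.0 FPKM in the controls to 51.3 and 53.7 in the knockdown libraries, while the green bar lies between 24.0 and 25.6 in all 4.

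The genes whose profile over the 4 libraries lay closest to CDH3, by Euclidean distance between centred log2(FPKM + 1) values, were MGAT5B (distance 0.0231), TCP11L2 (0.0245) and ZNF678 (0.0406). The span of TCP11L2 overlaps that of CKAP4, whose level was 38.5 and 38.2 FPKM in control cells, against 21.5 and 22.4 after knockdown. Reads from any bases that both genes share may not be told apart. With 4 libraries in 2 groups, such likeness mainly says that the size of the difference was alike on the log2(FPKM + 1) scale. Fold changes can differ, as for MGAT5B, at 3.07 and 2.97 FPKM in control cells, against 1.20 and 1.32 after knockdown.

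Vimentin, the intermediate filament protein of mesenchymal cells, was low from the outset and fell further. VIM (chromosome 10, 17228241 to 17237593) was at 1.47 and 1.44 FPKM in control cells, against 0.834 and 0.789 after knockdown. Replicates lay close together and the groups did not overlap. Both knockdown values lay below 1 FPKM, so VIM passed the filter only through its controls. The mean went from 1.45 ± 0.0216 to 0.812 ± 0.0319 FPKM (SD, n = 2), 44.1% lower, with a log2 change of -0.44 (SE 0.109, limma adjusted p = 0.0351). These values rest on about 240 and 244 fragments before and 150 and 140 after knockdown, over the longest annotated transcript. The call was lost without any 1 of control replicate 1 (adjusted p = 0.125), control replicate 2 (0.123), knockdown replicate 1 (0.0775) and knockdown replicate 2 (0.0966).

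The antisense RNA VIM-AS1 overlaps VIM and was at 0.244 and 0.237 FPKM in control cells, against 0.157 and 0.156 after knockdown. The strand setting is not given, so reads from bases that such a pair shares may not be told apart. The ratio of CDH1 to VIM was 17.5 in each control library and 28.9 and 30.4 in the knockdown libraries. The profiles closest to VIM were those of TXNDC12 (distance 0.0119), P4HA2 (0.0127) and SEPTIN10 (0.0131). All stood at higher levels, TXNDC12 at 107 and 106 FPKM in control cells, against 78.6 and 77.0 after knockdown. P4HA2 was at 26.3 and 26.0 FPKM, against 19.3 and 19.0, and SEPTIN10 at 65.2 in each control, against 48.6 and 47.3. Since the log2(FPKM + 1) scale understates the change of a weakly expressed gene, likeness on it is not likeness of fold change.

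Fibronectin, the matrix glycoprotein that mesenchymal cells deposit, fell as well. FN1 (chromosome 2, 215360440 to 215436073) was at 3.07 and 2.64 FPKM in control cells, against 2.02 and 1.89 after knockdown. The lower control stood above both knockdown libraries. The mean went from 2.85 ± 0.304 to 1.96 ± 0.0860 FPKM (SD, n = 2), 31.4% lower, with a log2 change of -0.38 (SE 0.0997, limma adjusted p = 0.0402). This call, too, was lost without control replicate 1 (adjusted p = 0.152), control replicate 2 (0.0753), knockdown replicate 1 (0.0960) or knockdown replicate 2 (0.127). It was also lost under quantile normalization (0.0611) and with a filter of 0.1 FPKM (0.0534).

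Of 9 fibronectin receptor genes, 8 of them integrin subunits and the other the syndecan gene SDC4, 5 were tested and 4 of these fell, against 18.9% of all tested features, with a median log2 change of -0.27. The 4 were ITGAV, ITGA5, ITGB1 and SDC4. This list was chosen with earlier results of these data known, so its counts are a description. The fifth tested gene, ITGB8, did not pass (limma adjusted p = 0.286), and ITGA4, ITGA8, ITGB3 and ITGB6 were below the filter. SDC4 and ITGB8 were chosen after their values were seen. SDC4 was at 57.2 and 56.1 FPKM in control cells, against 50.3 in each knockdown library (limma adjusted p = 0.0230), and its call was lost without any 1 library (0.0664 to 0.124). ITGAV, the alpha-V subunit, fell from 16.1 ± 0.330 to 10.5 ± 0.510 FPKM (SD, n = 2; limma adjusted p = 0.00313). ITGA5 and ITGB1, the subunits of the classical fibronectin receptor, fell from 20.6 ± 0.647 to 16.2 ± 0.611 FPKM and from 194 ± 2.85 to 160 ± 5.40 FPKM (limma adjusted p = 0.0109 and 0.0082). Without control replicate 1 the adjusted p was 0.0667 for ITGA5 and 0.0654 for ITGB1, and without control replicate 2 it was 0.0554 for ITGB1. The number that fell was 1 without control replicate 1 and 2 without control replicate 2.

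SNAIL, the zinc finger repressor that binds E-boxes of the CDH1 promoter, was the only factor of the 3 tested whose transcript passed the test. SNAI1 (chromosome 20, 49982980 to 49988886) was at 7.09 and 7.50 FPKM in control cells, against 9.62 and 9.54 after knockdown. Both knockdown libraries stood above both controls. The mean went from 7.30 ± 0.295 to 9.58 ± 0.0623 FPKM (SD, n = 2), 31.3% higher, with a log2 change of 0.35 (SE 0.0570, limma adjusted p = 0.0114). SNAI1 has 1 annotated transcript of 1686 bases, over which these values correspond to 678, 749, 1010 and 988 fragments in control 1 and 2 and knockdown 1 and 2. The adjusted p was 0.0619 without control replicate 1 and 0.0560 without knockdown replicate 1.

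TWIST1, a basic helix-loop-helix factor of mesoderm (chromosome 7, 19020991 to 19117636), was at 1.53 and 2.22 FPKM in control cells, against 1.49 and 1.70 after knockdown. The groups overlapped. Its log2 change was -0.14 (SE 0.151, 95% interval -0.53 to 0.26, limma adjusted p = 0.515) and turned to 0.04 when control replicate 2 was left out.

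ZEB1, the zinc finger and homeobox repressor at the centre of the miR-200 feedback loop, lay just above the filter. It was at 1.26 and 0.999 FPKM in control cells, against 0.996 and 0.838 after knockdown (chromosome 10, 31318495 to 31529814). The lower control and the higher knockdown library were nearly level. Its log2 change was -0.15 (SE 0.130, 95% interval -0.49 to 0.19, limma adjusted p = 0.411). The antisense gene ZEB1-AS1 overlaps the start of ZEB1 and stood higher than ZEB1 in every library, at 2.30 and 2.21 FPKM in control cells, against 2.89 and 2.41 after knockdown.

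ZEB2, the paralog of ZEB1, differed between the knockdown libraries. It was at 0.0017 and 0 FPKM in control cells, against 0.173 and 0.0207 in knockdown 1 and knockdown 2 (chromosome 2, 144364364 to 144521057). Over its longest annotated transcript of 9583 bases these values correspond to about 1.1, 0, 122 and 14.4 fragments. Both knockdown libraries stood above both controls, but knockdown 1 carried most of the signal. With no filter the log2 change was 0.13 (SE 0.0784, limma adjusted p = 0.430), where 9.6% of 29031 features were called.

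SLUG, the SNAIL paralog encoded by SNAI2 on chromosome 8, was at 0.402 and 0.256 FPKM in control cells, against 0.524 and 0.300 after knockdown. The groups overlapped, and in each group replicate 1 was the higher. With a filter of 0.1 FPKM its log2 change was 0.08 (SE 0.122, limma adjusted p = 0.665), where 23.7% of 19259 features were called.

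**Figure D3:**
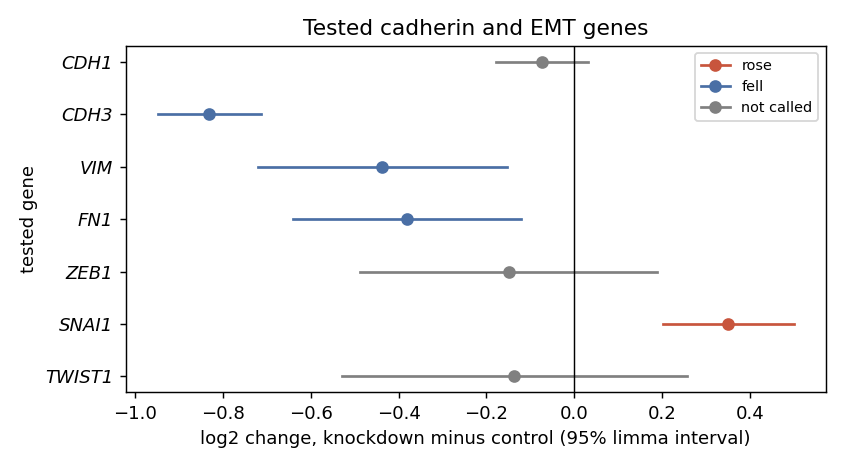
Log2 change on the log2(FPKM + 1) scale, knockdown minus control, of the 7 tested genes, with 95% intervals from limma. Red marks a gene that rose, blue genes that fell and grey genes that were not called. The interval of CDH1, from -0.18 to 0.03, is narrow and spans 0, whereas those of ZEB1 and TWIST1 are wide.

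ZEB1 and ZEB2 are known targets of the miR-200 family, small RNAs of epithelial cells whose members pair through their seed. The mature sequences of the pair encoded within the host gene MIR200CHG are given from RefSeq (GRCh38.p14), 5′ to 3′, with the seed (bases 2 to 8) in capitals, because they show the difference in the seed that splits the family.
hsa-miR-200c-3p: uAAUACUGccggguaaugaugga
hsa-miR-141-3p: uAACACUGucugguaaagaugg

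The host gene MIR200CHG (chromosome 12, 6963246 to 6964447) was at 6.96 and 4.05 FPKM in control cells, against 4.23 and 5.91 after knockdown. Groups overlapped and the gene did not pass (log2 change -0.08, SE 0.256, limma adjusted p = 0.834). The hairpin features MIR200C and MIR141 were listed at 0 throughout, and mature miRNAs were not measured by these libraries. MIR205HG was listed at 0 in all 4 libraries, and MIR34AHG was at 0.628, 0.601, 0.766 and 0.985 FPKM (control 1 and 2, knockdown 1 and 2), below the filter. MIR205HG and MIR34AHG were chosen after their values were seen.

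Of 19 other transcription factors that can drive EMT, 11 were tested, of which 3 rose, 7 fell and 1 was not called, beside 18.2% up and 18.9% down over all tested features. Their median log2 change was -0.51. Like the other lists, this one was chosen with earlier results of these data known, so its counts are a description. FOXQ1, a forkhead factor, was at 3.45 and 3.89 FPKM in control cells, against 0.435 and 0.488 after knockdown, 7.95-fold lower (limma adjusted p = 0.00117). It passed the filter only through its controls. ETS1 fell from 4.97 ± 0.0615 to 2.55 ± 0.205 FPKM (SD, n = 2; limma adjusted p = 0.0039). TBX3, a T-box repressor, rose from 2.90 ± 0.0742 to 9.52 ± 0.366 FPKM (limma adjusted p = 5.38e-04). Among factors chosen after their values were seen, SOX4 fell from 104 ± 0.313 to 69.3 ± 0.535 FPKM, HMGA2 from 80.7 ± 1.07 to 54.5 ± 2.88 and FOXC1 from 34.1 ± 0.986 to 23.6 ± 0.299, while PRRX2 rose from 18.3 ± 0.407 to 26.5 ± 1.03. The number that fell was 5 to 6 when any 1 library was left out.

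Mesenchymal effector genes, which encode matrix, protease, contractile and invasion proteins, moved both ways. Of 34, 20 were tested, of which 4 rose, 10 fell and 6 were not called, beside 18.2% up and 18.9% down over all tested features. Their median log2 change was -0.18. SPARC, among those that fell, passed the filter only through its controls, with a mean of 2.10 FPKM against 0.905 after knockdown. LOXL2, a lysyl oxidase of the matrix, fell from 25.2 ± 1.48 to 13.0 ± 0.161 FPKM (SD, n = 2; limma adjusted p = 0.00112). It overlaps ENTPD4, which stayed between 17.0 and 18.0 FPKM. DKK1, a secreted WNT antagonist, rose from 170 ± 5.02 to 333 ± 11.2 FPKM and S100A4, a calcium-binding protein of motile cells that overlaps S100A3, rose from 1181 ± 38.0 to 2214 ± 58.1 (limma adjusted p = 5.00e-04 and 5.73e-04). Chosen after their values were seen, SERPINE2 was 1.85-fold lower and MMP14 1.57-fold lower. The counts became 3 up and 6 down without control replicate 1 or control replicate 2.

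Of 37 epithelial genes of the kind that ZEB and SNAIL factors repress, 35 were tested, of which 15 rose, 5 fell and 15 were not called, beside 18.2% up and 18.9% down over all tested features. Their median log2 change was 0.15, and the largest change among the 5 that fell was that of EPCAM. EPCAM, the epithelial cell adhesion molecule, was at 312 FPKM in each control and at 147 and 141 in the knockdown libraries (limma adjusted p = 3.63e-04). CLDN4, a tight junction claudin, rose from 102 ± 0.904 to 209 ± 10.2 FPKM (SD, n = 2; limma adjusted p = 5.00e-04). OVOL1, a repressor of ZEB1 in epithelia, rose from 6.68 ± 0.109 to 16.3 ± 0.490 FPKM (limma adjusted p = 5.08e-04). The counts became 8 up and 1 down without control replicate 1, and 10 up and 2 down without control replicate 2.

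Of 17 catenin, nectin and related genes that partner E-cadherin at the adherens junction, 14 were tested, of which 4 rose, 1 fell and 9 were not called. That share is close to the 37.1% called over all tested features. The nectin genes NECTIN3 and NECTIN4, whose products start junctions beside cadherins, rose from 29.9 ± 0.915 to 66.9 ± 2.86 FPKM and from 0.941 ± 0.310 to 2.92 ± 0.502 FPKM (SD, n = 2; limma adjusted p = 4.78e-04 and 0.0111). NECTIN4 passed the filter only through its knockdown libraries. JUP, encoding plakoglobin, rose from 91.2 ± 0.446 to 136 ± 4.54 FPKM (limma adjusted p = 0.00138). Chosen after their values were seen, the core catenins CTNNA1, CTNNB1 and CTNND1 had log2 changes of 0.16, 0.09 and 0.14 and did not pass (limma adjusted p = 0.0835, 0.249 and 0.0838).

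Of 11 genes for the cleavage and uptake of E-cadherin, all tested, 2 rose and 2 fell, a share close to the 37.1% called over all tested features. ADAM10, the protease that sheds the E-cadherin ectodomain, rose from 131 ± 8.04 to 180 ± 3.32 FPKM (SD, n = 2; limma adjusted p = 0.00483). The gamma-secretase subunit gene NCSTN fell from 30.7 ± 1.05 to 23.5 ± 0.468 FPKM (limma adjusted p = 0.00564). The proprotein convertase gene PCSK6 fell from 7.97 ± 0.337 to 3.75 ± 0.530 FPKM (limma adjusted p = 0.00388). Its antisense RNA PCSK6-AS1 was at 1.48 and 1.13 FPKM in control cells, against 1.86 and 2.44 after knockdown.

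Of 13 genes for the turnover of SNAIL protein, 12 were tested, of which 2 rose and 2 fell, a share that does not exceed the 37.1% called over all tested features. CSNK1E, a casein kinase, rose from 64.7 ± 0.481 to 77.2 ± 2.07 FPKM (SD, n = 2; limma adjusted p = 0.00954). The ubiquitin ligase subunit gene FBXL14 fell from 8.12 ± 0.308 to 6.63 ± 0.464 FPKM and the kinase gene PAK1 from 19.98 ± 1.30 to 17.2 ± 0.259 (limma adjusted p = 0.0456 and 0.0496). The calls of FBXL14 and PAK1 were lost without any 1 library, with adjusted p from 0.0623 to 0.174 and from 0.0636 to 0.177. That of CSNK1E was lost without control replicate 1 (0.0617) or control replicate 2 (0.0685), and without either control no gene of this list was called by limma.

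Of 15 corepressors that SNAIL and ZEB factors recruit, all tested, 5 rose, 3 fell and 7 were not called, beside 18.2% up and 18.9% down over all tested features. RCOR1, the CoREST scaffold, rose from 11.4 ± 0.0706 to 16.2 ± 0.272 FPKM (SD, n = 2; limma adjusted p = 0.00313). The arginine methyltransferase gene PRMT5 rose from 62.1 ± 1.63 to 75.1 ± 4.34 FPKM (limma adjusted p = 0.0194; 0.0755 without control replicate 1 and 0.104 without control replicate 2). AJUBA, a LIM protein that bridges SNAIL to its partners, fell from 13.3 ± 0.0295 to 9.44 ± 0.308 FPKM (limma adjusted p = 0.00434). Without 1 library the corepressor calls fell to between 2 and 5.

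**Figure D4:**
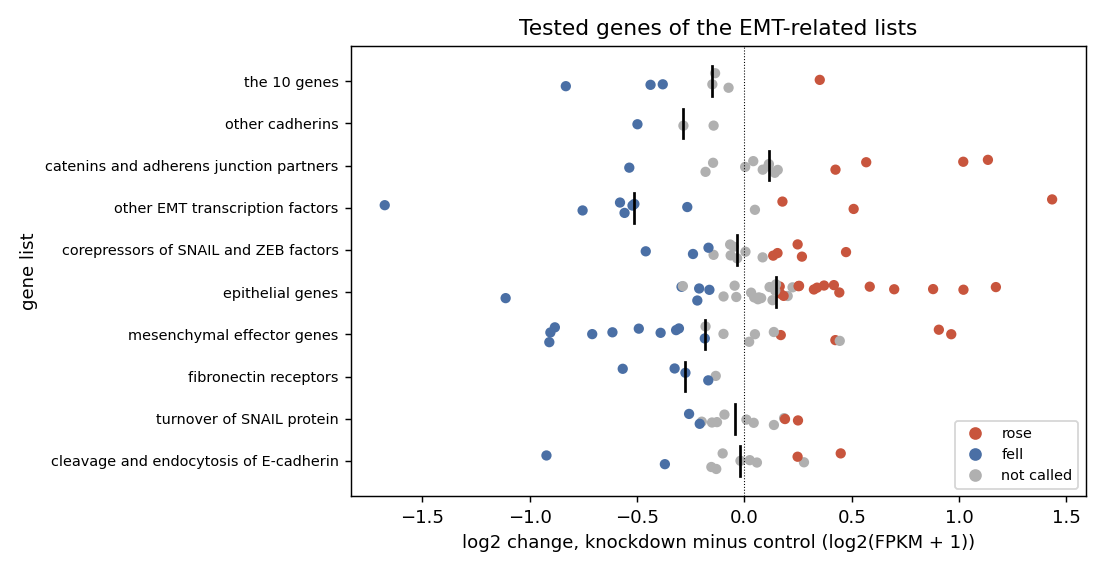
Log2 change on the log2(FPKM + 1) scale, knockdown minus control, of every tested gene in the 10 genes and in 9 related lists. Each dot is a gene, red where it rose, blue where it fell and grey where it was not called, and a black bar marks the list median. The bar of the other EMT transcription factors lies at -0.51, that of the mesenchymal effector genes at -0.18 and that of the epithelial genes at 0.15.

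Markers of cell type were read in the same libraries. Of 6 colon carcinoma markers, 5 were tested, 3 rose and 1, EPCAM, fell, beside 18.2% up and 18.9% down over all tested features. The called markers, EPCAM, KRT8, KRT18 and KRT19, are also in the list of epithelial genes and were already counted there. KRT8 rose from 883 ± 15.6 to 1433 ± 28.4 FPKM and KRT19 from 889 ± 34.0 to 1334 ± 69.3 (SD, n = 2; limma adjusted p = 7.68e-04 and 0.00264). KRT8 overlaps KRT18, which also rose. CDX2, the intestinal homeobox factor, was at 11.8 and 14.8 FPKM in control cells, against 13.1 and 10.9 after knockdown, and VIL1, a brush border protein gene, was at most at 0.208 FPKM. The summed level of 9 fibroblast markers was 3.78 to 5.07 FPKM in control cells, against 6.24 to 6.43 after knockdown. COL1A1 made up most of it (4.19 ± 0.873 and 6.02 ± 0.187 FPKM, limma adjusted p = 0.0518), and the other 8, DCN, LUM and FAP among them, were at most at 0.191 FPKM. COL1A1, COL1A2 and COL3A1 are also in the list of mesenchymal effector genes.

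The summed level of 5 leukocyte markers was 5.63 to 6.79 FPKM in the controls and at most 3.59 in the knockdown libraries. Nearly all of it was CD68, which fell from 5.91 ± 0.939 to 2.97 ± 0.598 FPKM (SD, n = 2; limma adjusted p = 0.0166; 0.0777 without control replicate 1 and 0.0569 without knockdown replicate 1). CD68 overlaps AC016876.2. PTPRC was listed at 0 in 3 libraries and at 0.0059 FPKM in knockdown 1, and CD3E at 0 in all. The sum of 4 endothelial markers was 0.163 to 0.209 FPKM over the 4 libraries. The part of other cells in the fall of VIM and FN1 was not tested. In bulk RNA, fewer cells of a type and less RNA per cell cannot be told apart.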

How the data were processed

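RNA-seq libraries of HCT116 cells (2 control, 2 ARID1A knockdown) were analysed from the deposited FPKM tables, 1 per library. The authors made the FPKM values with STAR and Cufflinks on GRCh38, per the submitters' processing notes. Versions, annotation release, strand setting and filters were not stated. Of 60811 rows, 45 second copies of pseudoautosomal genes were dropped, and 2347 values under 1e-09 were set to 0. Symbols were matched to the row keys, and 1 was added to each start. FPKM values are not counts, so limma 3.58.1 (R 4.3.3; lmFit, eBayes with trend) was fitted on log2(FPKM + 1). The fit was also run on simulated data with independent noise and few changed features. That setting differs from these libraries, so the run does not vouch for the calls here.

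The normalizing totals were estimated from genes with 1 transcript of at least 1500 bases in GENCODE release 29. With them, 84.0% to 87.1% of low values (up to 8 fragments) fell within 0.1 of a whole fragment. Counting error of a gene follows from the fragments given beside it. Replicates differed by more than counting noise (chi-square per degree of freedom 3.84 between controls and 3.35 between knockdown libraries). Fragments use the longest GENCODE transcript, shortened by 280 to 300 bases for fragment length.

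The 10 genes, the lists and the tests were chosen with earlier results of these data known. Named were all 10, ARID1A, the 3 called genes with the largest absolute change in each list (or, with none called, its highest tested gene), and the 3 called features closest in profile to each of the 2 most changed called genes, leaving out clone names. Alternatives were other pseudocounts, filters and scalings, no trend, a replicate block and leaving out each library.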

Additional observations from a re-analysis of the deposited data

How the results depend on the processing

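The number of called genes among the 10 was 4. It was 2 with no filter, 2 with a filter of 5 FPKM (CDH3 and SNAI1) and 2 with the replicate number as a block, and it was 1 to 2 when any 1 library was left out. Fewer genes were tested with the filter of 5 FPKM, and fewer libraries in the leave-out fits; the other causes were not tested. CDH3 was called in each alternative run. With the replicate block the adjusted p was 0.0731 for VIM and 0.0587 for FN1, and with no filter 0.0673 and 0.137. The log2 change of ARID1A stayed between -0.60 and -0.78 and was called in each alternative. The related lists held 70 called genes, and 37 to 54 when any 1 library was left out. The 70 were out of 127 tested genes on these lists, beside 37.1% called over all tested features. Over all features the count also fell when any 1 library was left out. The rise in the log2 ratio of CDH1 to VIM was 0.76, and 0.69 with 0.1 added to each FPKM, which shrinks a ratio to a low gene by construction. Over all features 5046 were called, 2786 with no filter and 2146 to 3368 without 1 library. Same-numbered libraries did not deviate together (r = -0.0099 across 13605 features, which are not independent). With so few libraries this cannot show whether the samples were paired, which the labels do not state. With the replicate block 4126 features were called. Low levels limit ZEB2, SNAI2 and CDH2, to different degrees. CDH2 rests on at most 1.2 fragments in a library, and ZEB2 on at most 1.1 in a control but on 122 in knockdown 1. SNAI2 rests on about 70, 46, 100 and 57 fragments in control 1 and 2 and knockdown 1 and 2.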

Other observations

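Features that overlap ZEB1, and NECTIN3 and OVOL1 from the related lists, had the following levels. The pseudogene SPTLC1P1, which lies within ZEB1, was at 3.23 and 2.46 FPKM in control cells, against 2.67 and 6.61 after knockdown. The antisense gene NECTIN3-AS1, which overlaps NECTIN3, was at 0.304 and 0.595 FPKM in control cells, against 0.416 and 0.618 after knockdown. The feature AP001266.1 overlaps OVOL1 and stood higher in the knockdown libraries, at 0.874 and 0.991 FPKM, than in the controls, at 0.291 and 0.400.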
